A study of Drosophila melanogaster with 7 samples.

Results

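The genes described here encode the proteins of the mitochondrial ribosome of *Drosophila melanogaster*, among them *tko* (technical knockout) and *bonsai*. They were chosen as the genes whose symbol or listed synonym begins with mRpL or mRpS, plus these 2, with the probe set of highest mean signal standing for each gene. Of 10844 genes named by the array, 67 met this rule, 43 of the large and 24 of the small ribosomal subunit by their names. *CG4866* entered only through its RefSeq synonym, mRpS4, and is counted among the 67. Whether it encodes a protein of the mitochondrial ribosome was not checked. RefSeq lists 76 such genes. The other 9, *mRpL27*, *mRpL34*, *mRpL37*, *mRpL53*, *mRpS5*, *mRpS10*, *mRpS14*, *mRpS21* and *mRpS23*, had no probe set naming them alone and were not analysed here. Whole 1st instar larvae of mixed sex carrying a mutation in *Pof* (pof mutant, 4 pools) were set against wild-type larvae of the same stage and mix (3 pools). Each pool of 400 larvae gave polyA RNA for 1 single-colour array. The sources used here do not name the allele, the genetic background or the age in hours. In such whole-animal samples, fewer cells of a type and less RNA per cell cannot be told apart.

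Mitochondria have their own ribosome, which translates the few proteins encoded by mitochondrial DNA, all of them parts of the respiratory chain and of ATP synthase. Its ribosomal RNAs come from the mitochondrial genome, whereas its proteins are encoded in the nucleus, made in the cytosol and imported. Many of them descend from bacterial ribosomal proteins, and others are found only in mitochondrial ribosomes. *tko* encodes the mitochondrial form of protein S12, which lies at the decoding centre of the small subunit. Fly strains with a partial loss of *tko* function develop slowly and have seizures after mechanical shock. *bonsai* encodes the mitochondrial form of S15. Pof protein, for which the mutant is named, binds RNA and coats chromosome 4. No chromosome 4 gene was among the 67. They lay on X (11), 2L (10), 2R (12), 3L (16) and 3R (18).

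Values are log2 signals made by RMA, a method that corrects background and puts all arrays on one distribution. A log2 value can be compared between arrays for 1 gene, but not between genes, since probes differ in brightness. Differences are pof mutant minus wild type, given with their standard error (SE) from limma. A gene was called changed when limma's p, adjusted by Benjamini-Hochberg over all 13966 probe sets, was under 0.05. By this rule 9 probe sets were called (0.0644%), 5 higher (0.0358%) and 4 lower (0.0286%). *Pof* itself had log2 levels of 3.41 to 3.501 on the mutant arrays and 3.64 to 3.90 on the wild-type arrays, which did not overlap, and was not called (limma, adjusted p = 0.323). With a signal at the 4.86 percentile of the array, near its floor, *Pof* says little about the labels. The mean signal difference between the 3' and 5' ends of control transcripts, a measure of how evenly RNA was copied, was 3.22 and 3.95 on pof mutant arrays 1 and 2 and 4.32 on wild-type array 1. It was 1.92 to 2.19 on the other 4 arrays. That the pools are biological replicates is the submitters' statement, and their number limits the precision of every value here.

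*tko* (probe set 143018_at, chromosome X) fell in the pof mutant and was the only one of the 67 genes that was called, where 0.0286% of all probe sets were called lower. Its log2 level was 6.65, 6.75, 6.66 and 6.83 on mutant arrays 1 to 4, against 7.99, 7.79 and 7.65 on wild-type arrays 1 to 3. The groups were far apart, with 0.82 between the highest mutant and the lowest wild-type array. The means were 6.72 ± 0.09 (SD, n = 4) in mutant larvae and 7.81 ± 0.17 (SD, n = 3) in wild-type larvae. The difference of -1.09 ± 0.09 (SE; limma, adjusted p = 0.0109) left 47.1% of the wild-type signal, and its 95% interval ran from -1.31 to -0.87. By p it ranked 5 of all 13966 probe sets. A fall of this size or more was seen in 13 probe sets, 3 of which were called. Since *tko* was singled out with this result already known, the p-value does not count as an independent test of it.

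The size of the *tko* difference varied little with the arrays used, while its call did not survive every choice. It stayed between -1.17 and -0.996 when each array was left out in turn. The adjusted p (limma) was above the threshold without pof mutant array 1 (0.0746), 2 (0.0672) or 3 (0.0689) or without wild-type array 2 (0.0935). It stayed below it without pof mutant array 4 (0.0478) and without wild-type array 1 (0.00755) or 3 (0.0246). Wild-type array 1 had both the highest *tko* level and the largest 3' to 5' difference. When it entered the fit as a covariate, the *tko* value was -1.09 (adjusted p = 0.00175). On the 4 arrays with a 3' to 5' difference under 3, which are pof mutant arrays 3 and 4 and wild-type arrays 2 and 3, it was -0.97 and was no longer called (adjusted p = 0.272).

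**Figure D1:**
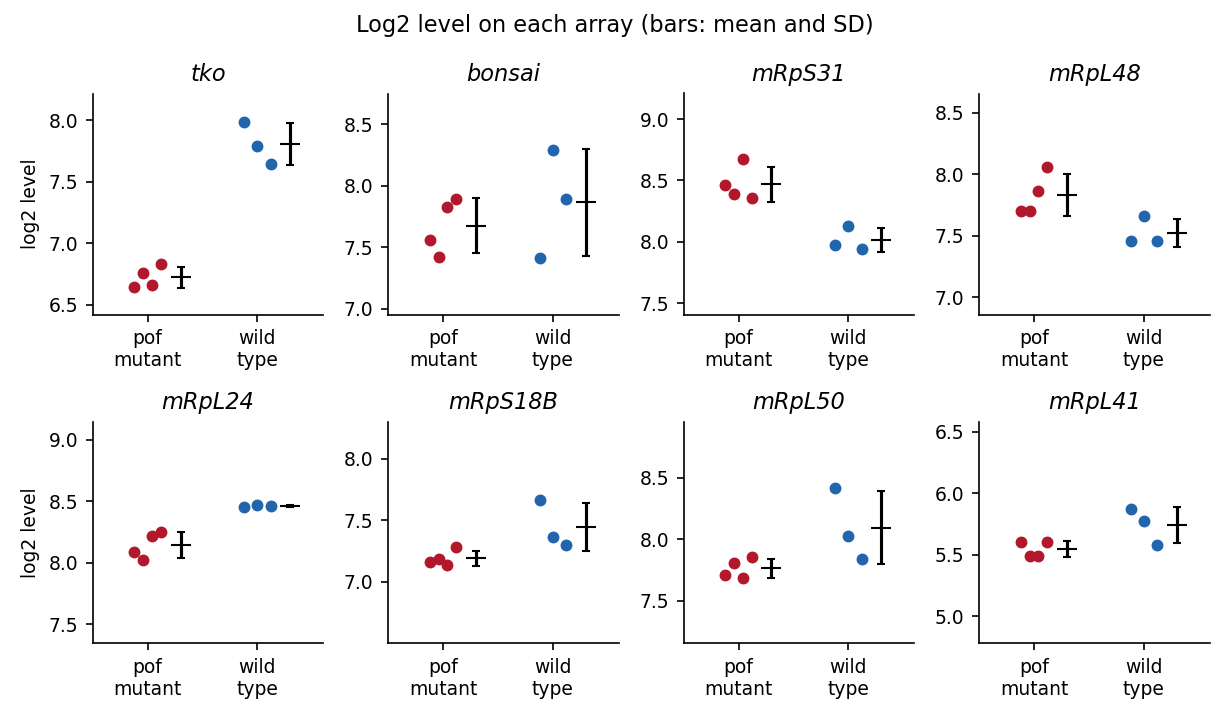
Log2 level of 8 mitochondrial ribosomal protein genes on each array, pof mutant in red (4 arrays) and wild type in blue (3 arrays), with mean and SD beside the points and a vertical axis of the same span in every panel. For *tko* the mutant arrays lie at 6.65 to 6.83 and the wild-type arrays at 7.65 to 7.99, and the gap is wider than for the other 7 genes.

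None of the other 66 genes was called, against 0.0644% of all probe sets. At an unadjusted p under 0.05 (limma) there were 7, which is 10.6% of the 66 and compares with 5.43% of all probe sets. Of these, 3 were higher (3.06% of all probe sets were) and 4 lower (2.37%). The range of the 66 differences was -0.38 to 0.45, with a median of -0.07, and that of all genes was -0.02. Of the 66, 46 (69.7%) had a lower mutant mean, against 58.0% of all probe sets. That count was 36 without wild-type array 2 and 50 without wild-type array 1.

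The intervals show how large a change in the other genes the arrays leave room for. Every one of the 66 genes had a 95% interval (limma) that lay wholly above the upper bound of *tko*, -0.87. Each of these intervals also lay within 1 log2 unit of 0, as 97.6% of all probe sets did. The share of all probe sets with an interval above the *tko* bound was not counted. The count above that bound was 64 of 66 without pof mutant array 1 or without wild-type array 2. For 54 of them (81.8%) it lay within 0.5 of 0, as for 83.7% of all probe sets. The interval held 0 for 59 of the 66 (89.4%), against 94.6% of all probe sets. The lowest lower bound was that of *mRpS33*, -0.76, and the highest upper bound that of *mRpL33*, 0.76. *mRpL33* had the widest interval, with mutant levels of 7.55 to 8.39 and wild-type levels of 7.48 to 8.57. Its 3 highest arrays were those with the largest 3' to 5' difference.

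**Figure D2:**
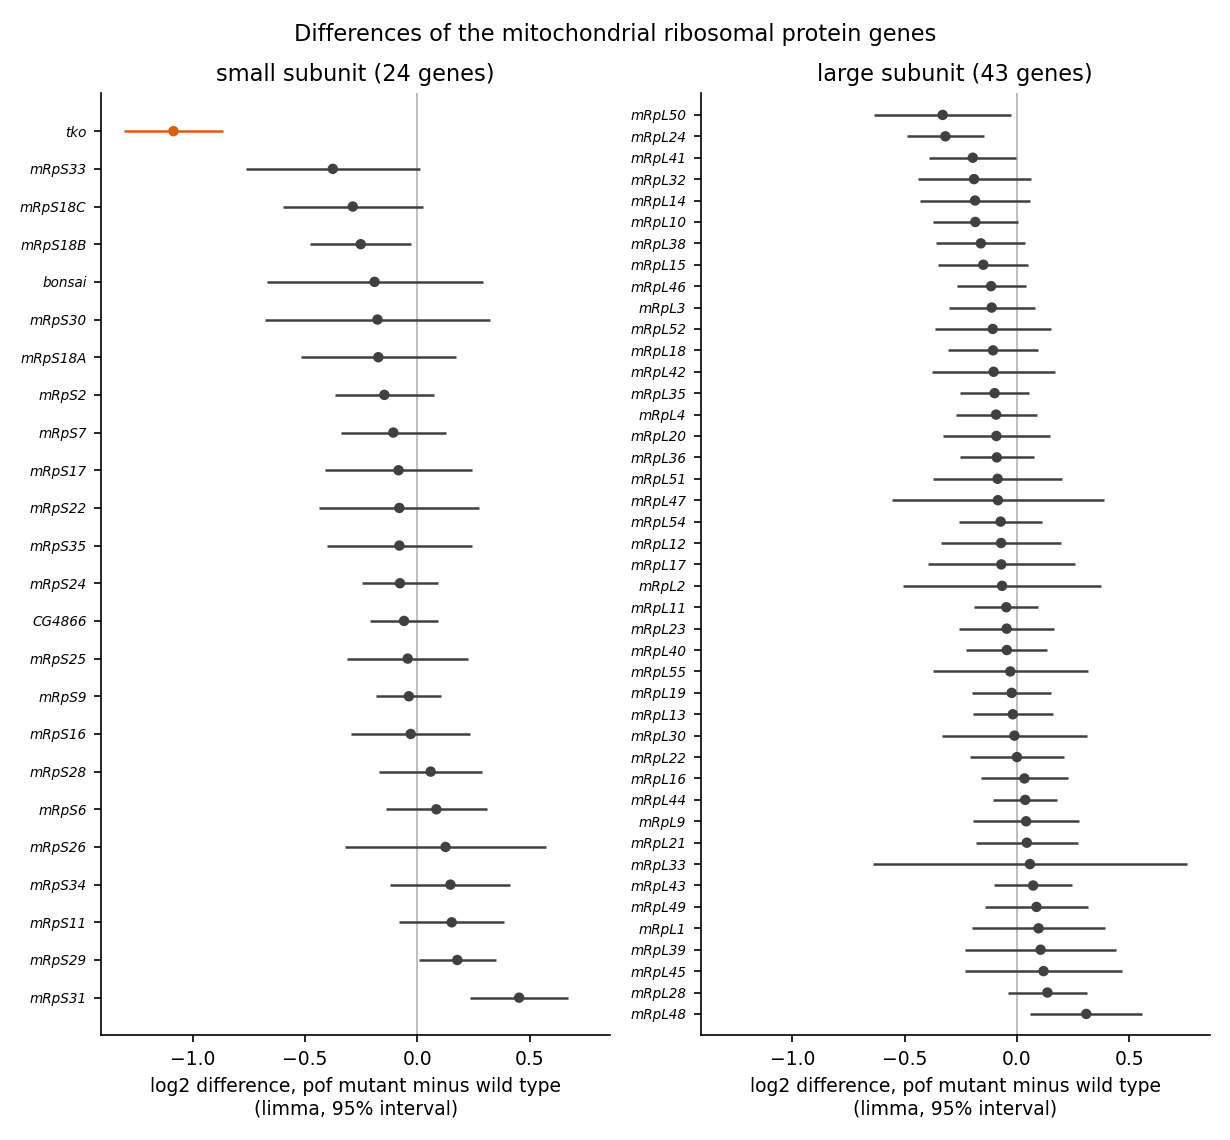
Log2 difference, pof mutant minus wild type, of each mitochondrial ribosomal protein gene (points) with limma's 95% interval (lines), sorted by value. Genes placed by name in the small subunit are left and those in the large subunit right. The *tko* interval, -1.31 to -0.87, is apart from those of the other 66 genes, 59 of which hold 0.

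Set against the rest of the ribosome on the same array, *tko* stood at the edge on every array. For each gene the log2 deviation from its own mean over the 7 arrays was taken. On mutant arrays 1 to 4, *tko* deviated by -0.54, -0.43, -0.53 and -0.36, while the lowest of the other 66 genes was at -0.37, -0.35, -0.48 and -0.20. On wild-type arrays 1 to 3 it deviated by 0.80, 0.60 and 0.46, while the highest of the others was at 0.66, 0.53 and 0.21. It was thus below all other members on 4 of 4 mutant arrays and above all of them on 3 of 3 wild-type arrays. The deviation of *tko* minus the median of the others was -0.45 ± 0.05 (SD, n = 4) over the mutant arrays and 0.60 ± 0.19 (SD, n = 3) over the wild-type arrays. Because deviations are taken from a gene's own mean, a gene with a large group difference lies low in 1 group and high in the other. These positions therefore largely restate the *tko* difference and are no separate evidence for it. This comparison is a description, with no test.

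The median of the other members varied between arrays within each group. Their median deviation was -0.05, -0.06, -0.05 and 0.10 on mutant arrays 1 to 4, against -0.02, 0.10 and -0.02 on wild-type arrays 1 to 3. One array in each group was therefore high, and the groups overlapped. On pof mutant array 4, 51 of the 66 genes were above their own mean, and on wild-type array 2, 57 were. On the remaining mutant arrays 18 to 24 were, and on the remaining wild-type arrays 26 and 31. Of all genes, 53.8% were below their own mean on pof mutant array 4 and 51.9% on wild-type array 2, so that the rise on these arrays was not shared by all genes. Wild-type array 1 spread the members most, with quartiles of -0.23 and 0.13, and held the lowest value of the 7 for 18 genes and the highest for 20.

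**Figure D3:**
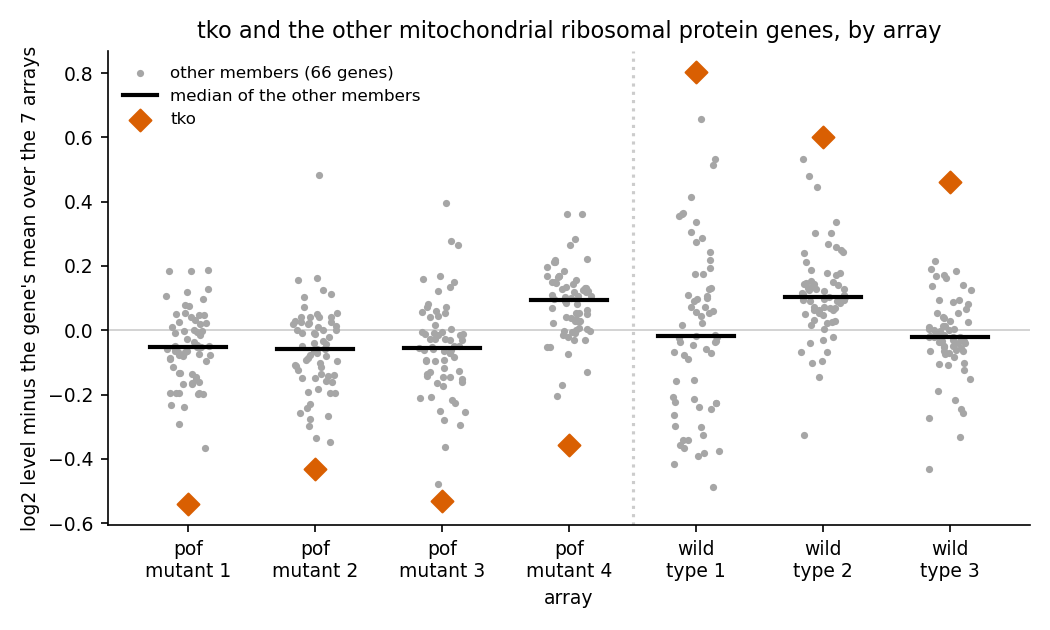
Log2 deviation of each mitochondrial ribosomal protein gene from its own mean over the 7 arrays, by array, pof mutant left and wild type right; grey points are the 66 genes other than *tko*, black bars their median, and orange diamonds *tko*. *tko* is the lowest point on every mutant array and the highest on every wild-type array, while the medians of the others lie between -0.06 and 0.10.

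Among the genes placed in the small subunit by name, none but *tko* was called. The other 23 had a median difference of -0.08, 16 lower and 7 higher. These placements were not checked against the structure of the ribosome. *mRpS31*, one of the proteins found only in mitochondrial ribosomes, differed most in the other direction. Its log2 level was 8.46, 8.39, 8.67 and 8.36 on the mutant arrays, against 7.97, 8.13 and 7.94 on the wild-type arrays. The groups did not overlap, and the difference was 0.45 ± 0.09 (SE; limma, adjusted p = 0.246, unadjusted p = 0.00141). *mRpS29*, which encodes a GTP-binding protein also known as DAP3, was at 8.90, 8.90, 9.005 and 8.88 on the mutant arrays and 8.63, 8.86 and 8.74 on the wild-type arrays. Its groups lay apart by 0.02 only, and the difference of 0.18 ± 0.07 was not called (limma, adjusted p = 0.892). *mRpS11* (0.15 ± 0.10) and *mRpS34* (0.15 ± 0.12) had overlapping groups, and on wild-type array 1 each was at its lowest of the 7 arrays.

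*bonsai* (142333_at) gave no separation between the groups. It was at 7.56, 7.42, 7.83 and 7.89 on the mutant arrays and 7.41, 8.29 and 7.89 on the wild-type arrays. Both the lowest and the highest value were from wild-type arrays. The difference was -0.19 ± 0.21 (limma, adjusted p = 0.962), with a 95% interval of -0.67 to 0.29, and it turned to 0.02 without wild-type array 2.

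The fly genome holds 3 genes for mitochondrial proteins of the S18 type, and their differences were all below 0 without a call. *mRpS18B* was at 7.16, 7.19, 7.14 and 7.28 on the mutant arrays and 7.66, 7.37 and 7.30 on the wild-type arrays. These did not overlap, by a margin of 0.02, and the difference was -0.25 ± 0.10 (limma, adjusted p = 0.842, unadjusted p = 0.0321). *mRpS18C* (-0.29 ± 0.13) and *mRpS18A* (-0.17 ± 0.15) had overlapping groups. *mRpS33*, a protein found only in mitochondrial ribosomes, had the lowest value after *tko*, -0.38 ± 0.17 (limma, adjusted p = 0.927). Its levels were 7.77, 7.997, 7.49 and 7.97 on the mutant arrays and 8.50, 8.12 and 7.93 on the wild-type arrays, so that wild-type array 3 lay among the mutant values. *mRpS18A*, *mRpS18B*, *mRpS18C* and *mRpS33* had their highest level on wild-type array 1, as *tko* did.

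Of the 43 genes placed in the large subunit by name none was called, with a median difference of -0.07, 30 lower and 13 higher. *mRpL24*, the mitochondrial form of a bacterial protein that binds ribosomal RNA early in assembly, had the smallest p. Its log2 level was 8.08, 8.02, 8.22 and 8.25 on the mutant arrays, against 8.45, 8.47 and 8.46 on the wild-type arrays. All mutant arrays lay below all wild-type arrays, and the difference was -0.32 ± 0.07 (limma, adjusted p = 0.323, unadjusted p = 0.0027). The wild-type SD of 0.01 was far below that of the mutant, 0.11. *mRpL48*, a protein found only in mitochondrial ribosomes, had the smallest p among the genes with a higher mutant mean. It was at 7.70, 7.70, 7.87 and 8.06 on the mutant arrays and 7.45, 7.66 and 7.45 on the wild-type arrays, a difference of 0.31 ± 0.11 (limma, adjusted p = 0.79).

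*mRpL50* and *mRpL41*, also found only in mitochondrial ribosomes, had lower means in the mutant with overlapping groups. *mRpL50* was at 7.71, 7.80, 7.69 and 7.85 on the mutant arrays and 8.42, 8.02 and 7.84 on the wild-type arrays, a difference of -0.33 ± 0.13 (limma, adjusted p = 0.882). *mRpL41* had a difference of -0.20 ± 0.08 (limma, adjusted p = 0.915) and a mean level of 5.63. *mRpL41* and *CG4866* (4.49) were the only members with a mean level under 6, where RMA understates changes. *mRpL10*, which encodes the base of the ribosomal stalk, differed by -0.19 ± 0.08, and *mRpL38* by -0.16 ± 0.09. The higher means with the next smallest p were those of *mRpL28* (0.14 ± 0.08), *mRpL43* (0.07 ± 0.08) and *mRpL49* (0.09 ± 0.10). *mRpL28* was at 8.66 to 8.71 on the mutant arrays and 8.40 to 8.66 on the wild-type arrays, which lay apart by 0.00096. The genes of the largest signals, *mRpL55* (-0.03 ± 0.15), *mRpS16* (-0.03 ± 0.11), *mRpS7* (-0.11 ± 0.10) and *mRpS24* (-0.08 ± 0.07), and those of the smaller ones, *mRpL1* (0.10 ± 0.13), *mRpL32* (-0.19 ± 0.11) and *CG4866* (-0.06 ± 0.07), had overlapping groups.

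Groups without overlap were found for 4 of the 66 genes with higher mutant levels (*mRpS31*, *mRpL48*, *mRpS29* and *mRpL28*), where 3.21% of all probe sets were so placed. For 2 genes, *mRpL24* and *mRpS18B*, all mutant arrays were lower, as for 2.79% of all probe sets. Classed mainly by the numbers in their names, 40 genes other than *tko*, *CG4866* among them, had a bacterial counterpart. Of these, 31 had a lower mean (77.5%), with a median of -0.07. Of the 26 found only in mitochondrial ribosomes, 15 had a lower mean (57.7%), with a median of -0.04. The difference between these classes was not tested. For *mRpL12*, the stalk protein, and *mRpL11*, a 2nd probe set was on the array. It gave -0.04 ± 0.15 for *mRpL12*, beside -0.07 ± 0.11 for the brighter one, and -0.17 ± 0.11 for *mRpL11*, beside -0.05 ± 0.06. *tko* had a single probe set, so no 2nd measurement of its transcript was at hand, and where its probes lie in the transcript is not known here.

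The genes beside *tko* on the X chromosome were near the same level in both groups. Among the 10 measured genes on each side in the RefSeq annotation (Release 6), none was called, and the differences ran from -0.19 to 0.08 with a median of -0.06. Of these 20, 15 had a lower mean (75%), against 54.6% of all X-linked genes. *Vha36-3*, a gene of the vacuolar proton pump and the 5th measured gene after *tko*, was the 1 neighbour whose groups did not overlap, where 2.79% of all probe sets were lower in this way. It was at 6.90 to 6.98 on the mutant arrays and 6.99 to 7.22 on the wild-type arrays, a difference of -0.18 ± 0.07 (limma, adjusted p = 0.882, unadjusted p = 0.0362). Directly before *tko* lie *gt*, a gap gene of the early embryo, at -0.08 ± 0.09, *CG12496* at -0.08 ± 0.12, *PsGEF* at -0.03 ± 0.07 and *CG2841* at -0.14 ± 0.14. After it lie *boi*, a Hedgehog co-receptor, at -0.0023 ± 0.09, *z* (zeste, a DNA-binding protein) at -0.08 ± 0.06, *trol*, the perlecan of the basement membrane, at -0.05 ± 0.19, and *Pdfr*, a neuropeptide receptor, at -0.01 ± 0.18. *mRpL14* is another gene of the mitochondrial ribosome among the 20, the 5th measured gene before *tko*. It was at 7.37, 7.39, 7.28 and 7.38 on the mutant arrays and 7.79, 7.47 and 7.36 on the wild-type arrays, a difference of -0.19 ± 0.10 (limma, adjusted p = 0.962). Wild-type array 3 lay among the mutant arrays. The remaining X-linked members, among them *mRpL16*, *mRpL30* and *mRpL33*, had differences of -0.18 to 0.09.

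**Figure D4:**
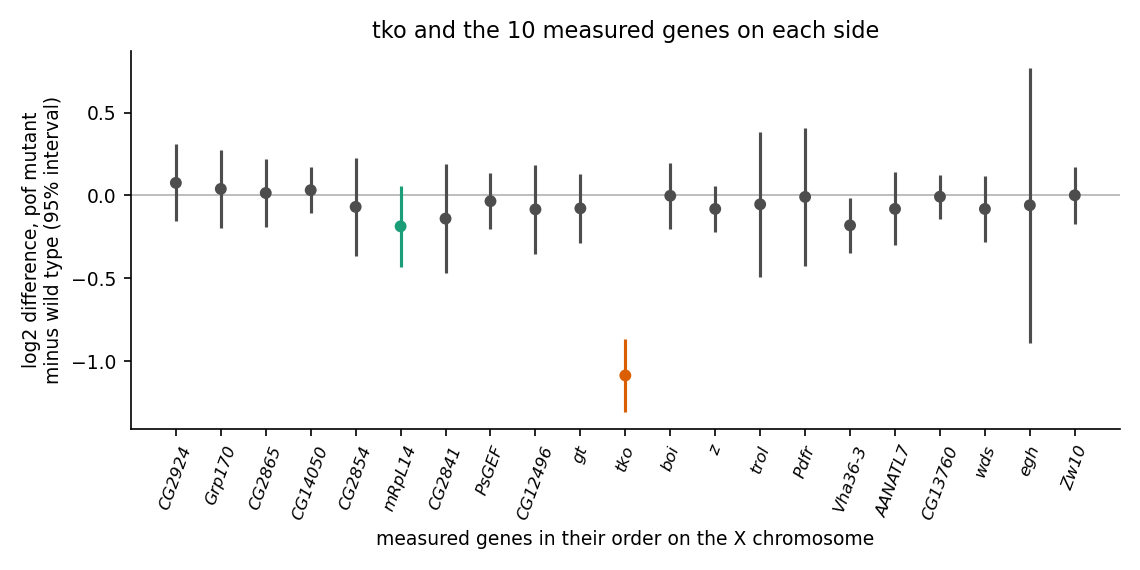
Log2 difference, pof mutant minus wild type (points), with limma's 95% interval (lines), for *tko* (orange) and the 10 measured genes on each side of it, in their order on the X chromosome; *mRpL14* is green. The neighbours lie between -0.19 and 0.08, and *tko* is at -1.09.

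The other genes that serve mitochondrial protein synthesis were examined as lists. None of their members was called, where 0.0644% of all probe sets were. A mean level of at least 6 was reached by 4 of 9 translation factors and 6 of 16 synthetase genes. It was reached by 5 of 9 genes of mitochondrial DNA and 4 of 5 of RNA handling, and by 54.4% of all genes. Below that level RMA understates changes, so small differences there do not show unchanged genes. In the list of translation factors 9 of 11 genes were measured, 1 of them the inner-membrane ion exchanger *Letm1* (0.05 ± 0.10), which is not itself a translation factor. Of the 9, 2 were higher, *Letm1* among them, and 7 lower, with a median of -0.03. *mRRF1*, the factor that releases the ribosome from the messenger after translation, was at 6.09, 6.16, 6.003 and 6.13 on the mutant arrays and 5.71, 5.95 and 5.69 on the wild-type arrays. The groups did not overlap, and the difference of 0.31 ± 0.08 was not called (limma, adjusted p = 0.46). The elongation factor *mEFG1* (-0.24 ± 0.12) and the release factor *mRF1* (-0.18 ± 0.09) had values below 0. Of 20 listed mitochondrial aminoacyl-tRNA synthetases and amidotransferase subunits, which charge tRNAs, 16 were measured, 12 of them lower and 4 higher (median -0.03). *CysRS-m* (-0.28 ± 0.09; limma, adjusted p = 0.694), *TrpRS-m* (-0.13 ± 0.07) and *MetRS-m* (-0.20 ± 0.12) had the smallest p.

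Genes that keep and transcribe mitochondrial DNA had a median of -0.04 over 9 measured genes of 11 listed, 6 lower and 3 higher. The transcription terminator *mTTF* was at 0.12 ± 0.07, the DNA polymerase *PolG1* at -0.15 ± 0.09 and the transcription factor *mtTFB2* at -0.17 ± 0.16. In the list of mitochondrial RNA handling 5 of 10 genes were measured, and all 5 had lower means (median -0.14), where 58.0% of all genes did, with the helicase *Suv3* at -0.21 ± 0.10, the RNA-binding protein *bsf* at -0.17 ± 0.10 and the poly(A) polymerase *MTPAP* at -0.12 ± 0.11. No gene of either list had an unadjusted p under 0.05 (limma), where 5.43% of all probe sets did. In lists this short such a count says little.

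Of 21 listed genes of mitochondrial protein import and folding 16 were measured, 9 of them lower and 7 higher, with a median of -0.02. *Tom70*, a receptor of the outer membrane for imported proteins, had the value farthest from 0. It was at 5.55, 5.62, 5.60 and 5.74 on the mutant arrays and 5.97, 6.26 and 6.02 on the wild-type arrays. The groups did not overlap, and the difference of -0.45 ± 0.09 was not called (limma, adjusted p = 0.208, unadjusted p = 0.000976). The chaperone cofactor *Roe1* was at 0.13 ± 0.07 and the import motor protein *blp* at 0.11 ± 0.07. The subunits of oxidative phosphorylation include the products of mitochondrial translation, but those measured here are encoded in the nucleus. The list was filled by the pattern of gene names, and 57 of its 65 genes had a mean level of at least 6. Of the 65, 35 were lower and 30 higher (median -0.01), with *ND-PDSW* at 0.20 ± 0.06 and *ND-B14* at -0.19 ± 0.07. *COX5BL*, with a mean level of only 5.06, was at -0.22 ± 0.10. Of 37 genes named as cytosolic ribosomal proteins, 33 were higher and 4 lower (median 0.08), against 58.0% lower among all genes, and none was called. Their median deviation was 0.09 and 0.10 on pof mutant arrays 1 and 2, the mutant arrays with the larger 3' to 5' differences, and -0.03 and -0.0031 on pof mutant arrays 3 and 4, against -0.02, -0.06 and -0.03 on wild-type arrays 1 to 3. Wild-type array 1, at -0.02, had the largest 3' to 5' difference of all arrays. The part of the 3' to 5' difference in the values of this list was not tested. *RpS18* was at 0.30 ± 0.09, *RpS21* at 0.28 ± 0.09 and *RpL24-like*, which carries such a name but acts in making ribosomes, at 0.46 ± 0.15.

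**Figure D5:**
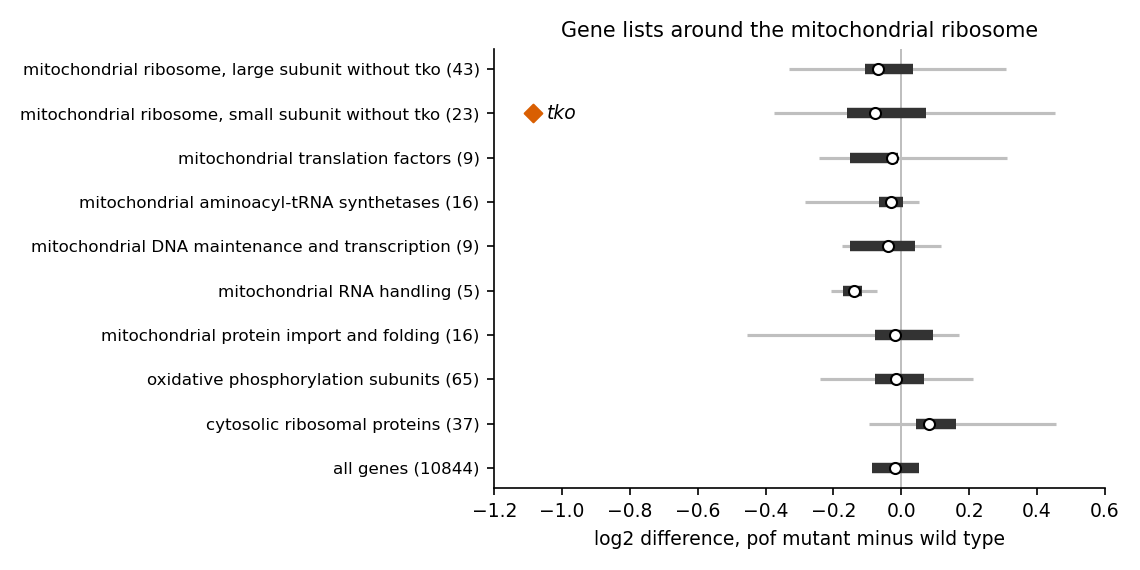
Log2 difference, pof mutant minus wild type, over the genes of each list: white circles are medians, thick bars the middle quartiles and thin lines the full range (not drawn for all genes), with the number of genes in brackets. *tko*, the orange diamond, is at -1.09, and the list medians lie between -0.14 and 0.08.

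Markers of the larval tissues were examined beside these values. Of 8 chosen midgut digestion markers 7 were measured, and 6 of these were higher in the mutant, none called. At an unadjusted p under 0.05 (limma) 4 of the 7 were higher, where 3.06% of all probe sets were. For 3 of the 7 all mutant arrays were higher than all wild-type arrays, as for 3.21% of all probe sets. The median deviation of the list from its own means was -0.10 to 0.61 on the mutant arrays and -0.43 to -0.14 on the wild-type arrays, without overlap, while the summed linear signal overlapped, at 16695 to 32409 on the mutant arrays and 12962 to 18532 on the wild-type arrays. *betaTry* was at 1.37 ± 0.22 (limma, adjusted p = 0.156), *LManI* at 0.53 ± 0.10 and *Jon44E* at 0.65 ± 0.14. Of 7 chosen fat body markers 4 were measured, and 3 of these were higher. Their median deviation was 0.06 to 0.10 on the mutant arrays and -0.16 to -0.05 on the wild-type arrays. Their summed signal was 2717 to 3096 on the mutant arrays and 2112 to 2721 on the wild-type arrays. *FASN1* was at 0.37 ± 0.09, *apolpp* at 0.29 ± 0.15 and *Fbp1* at -0.13 ± 0.13. The part of these markers in the *tko* difference was not tested.

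The summed signals of the other marker lists overlapped between the groups as well. They were 13744 to 17600 on mutant and 9983 to 20147 on wild-type arrays for muscle (6 genes, among them *sls* at -0.14 ± 0.15, *Mlc1* at 0.24 ± 0.30 and *bt* at 0.12 ± 0.20). For neurons they were 327 to 363 on mutant and 280 to 381 on wild-type arrays (4 genes, *ChAT* at 0.08 ± 0.10, *nSyb* at -0.10 ± 0.22 and *brp* at 0.02 ± 0.09). For cuticle they were 883 to 1259 on mutant and 758 to 996 on wild-type arrays (4 genes, *Cpr49Ac* at 0.44 ± 0.13, *kkv* at -0.21 ± 0.07 and *TwdlE* at -0.18 ± 0.08). For adult females they were 942 to 1055 on mutant and 913 to 1113 on wild-type arrays (6 genes, *Cp38* at 0.10 ± 0.07, *Yp1* at 0.09 ± 0.07 and *Cp15* at -0.10 ± 0.11). For testis they were 472 to 514 on mutant and 461 to 512 on wild-type arrays (5 genes, *betaTub85D* at -0.12 ± 0.11, *Mst98Ca* at 0.05 ± 0.07 and *aly* at -0.03 ± 0.07). The cuticle sum hides genes that differed in opposite directions. For 1 of the 4 all mutant arrays were higher (3.21% of all probe sets), and for 2 all were lower (2.79%). At an unadjusted p under 0.05 (limma), 1 was higher (3.06%) and 1 lower (2.37%), and none was called. Measured were 6 of 8 chosen muscle markers, 4 of 6 for neurons and 4 of 6 for cuticle. No marker was at 0, since RMA gives every probe set a positive value, and the lowest means were those of *dj* (3.48), a testis gene, and *elav* (3.77), a neuronal gene.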

How the data were processed

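Log2 expression values of 14010 probe sets on 7 arrays were used as deposited. Per the submitters' processing notes, the authors made these log2 values with RMA, of no stated version. RMA quantile normalizes arrays and compresses low signals. The 44 array controls were left out of the tests. Of 13966 probe sets, 12443 named 1 gene in the platform table, and 12394 of these matched RefSeq (Release 6), which supplied symbols, synonyms, chromosome arms and gene order. No build is named for the array, so no coordinates are given, and no sequences were used here. Groups and replicate numbers came from sample titles. The groups were tested by lmFit and eBayes of limma 3.58.1 (R 4.3.3) without covariates, with Benjamini-Hochberg adjustment over all 13966 probe sets. Each p-value sets the group difference against the spread between these pools, which eBayes moderates over all probe sets. It does not separate the mutation from other differences between the groups. Tables and figures were made in Python 3.11.15 with matplotlib 3.10.9. The fit was tested on simulated data with independent noise for each probe set and array. Deviations that many probe sets share on an array were not simulated. Promoter motifs, which were planned, were not analysed here.

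The members, gene lists, tests and the rule for named genes were chosen with earlier results of these data known. The rule names *tko*, *bonsai*, *Pof*, the 8 other members of smallest p in each direction, the 4 of highest and 4 of lowest mean signal, the 3 genes of smallest p in each list, and 4 neighbours of *tko* on each side. *mRpS18A*, *mRpL11*, *mRpL12*, *mRpL14*, *mRpL16*, *mRpL30*, *mRpL33*, *Letm1*, *Vha36-3*, *egh*, *dj* and *elav*, and in the closing section *Cyp4d1*, *CG14419* and *CG6891*, are named outside it, after their values were seen. Same-numbered arrays of the groups did not all deviate together (correlations of 0.245, -0.571 and 0.559 for numbers 1, 2 and 3), so the numbers are not used as pairs.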

Additional observations from a re-analysis of the deposited data

Results flagged for a closer look

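Among the 4 mutant arrays, Dixon's 95% limit for an outlying array was passed in 8 of 80 sets of values examined, where chance gives about 1 in 20 (4 sets). Groups of 3 were not examined. The median deviation of the 66 members other than *tko* was 0.095 on pof mutant array 4, against a median of -0.05 on the other 3 mutant arrays and a wild-type range of -0.02 to 0.10. For the members placed in the large subunit by name it was 0.099 on that array, against -0.06, with wild-type arrays at -0.02 to 0.11. On the same array *mRpS11* was at 8.73 (median of the other 3 mutant arrays 8.62, wild type 8.26 to 8.65), *mRpL32* at 6.42 (6.12, wild type 6.27 to 6.59), *mRF1* at 5.07 (5.17, wild type 5.17 to 5.52) and *kkv* at 6.81 (6.63, wild type 6.83 to 6.95). *mRpS29* was at 9.005 on pof mutant array 3 (8.90, wild type 8.63 to 8.86) and *z* at 5.89 on pof mutant array 2 (5.97, wild type 5.98 to 6.10). None of these 8 sets was that of *tko*.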

How the results depend on the processing

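The *tko* difference kept its sign under all 16 alternatives. Its call was lost with the replicate block (-1.12; limma, adjusted p = 0.182), on the 4 arrays with a 3' to 5' difference under 3 (-0.97; 0.272), and in 4 of 7 fits that left out an array (-1.17 to -0.996 over the 7; adjusted p 0.00755 to 0.0935). No other member was called except with limma's default array weights, which called 13 of 66, 1 neighbour of *tko*, 21 genes of the pathway lists and 1200 probe sets in all; that algorithm stopped before it converged and gave wild-type array 2 a weight of 17.1. With gene-by-gene weights, added after seeing the data, 0 members, 1 list gene and 76 probe sets were called. The interval count above the *tko* bound was 64 to 66 of 66 with an array left out, and 65 after another quantile normalization and on the 4 even arrays. Of all probe sets 86 were called with the 3' to 5' difference as covariate, 2 with the replicate block, 0 on the 4 even arrays, 4 at an adjusted p under 0.01, and 0 to 34 with an array left out. Of 24 other named members, 382 values under alternatives held 13 sign changes, all in members not called in the main fit. Among these, *bonsai* was called with the default array weights, which did not converge (-0.55, limma, adjusted p = 0.0261). With an array left out, *mRpL55* ran from -0.17 to 0.11, *mRpS16* from -0.15 to 0.060, *mRpL1* from -0.064 to 0.21 and *bonsai* from -0.42 to 0.021. On the 4 even arrays *mRpL55* was at 0.041, *mRpS16* at 0.094, *mRpL1* at -0.012 and *mRpS7* at 0.025. With gene-by-gene weights *mRpL55* was at 0.047, *mRpS16* at 0.0065 and *mRpL1* at -0.0058.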

Other observations

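*tko* was 1 of 4 X-linked genes that were called among 1763 measured there (0.0644% of all probe sets were called), and 2 of the other 3 lie near it in the annotated gene order. Between *Cyp4d1* (1.61 ± 0.16; limma, adjusted p = 0.0177) and *tko* lie 40 protein-coding genes of the 2197 annotated on X, and between *tko* and *CG14419* (2.07 ± 0.15; limma, adjusted p = 0.00617) lie 46. From *Cyp4d1* to *CG14419* 77 genes were measured, and these 3 were the ones called; the stretch was bounded by called genes, so its share of calls is not set against the background. The 4th, *CG6891* (1.14 ± 0.10; limma, adjusted p = 0.0139), is 1596 genes away. Both nearby genes were higher in the mutant, whereas *tko* was lower. This was noticed after the values were seen and was not tested.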
